A study of Mus musculus with 12 samples.

Results

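Chemokines are small secreted or membrane-bound proteins that guide leukocytes along concentration gradients, and chemokine receptors are the seven-pass, G protein-coupled receptors that read those gradients. They are named by the spacing of their first cysteines (C, CC, CXC and CX3C, with L for ligand and R for receptor). In the liver they are made by Kupffer cells, sinusoidal endothelium, stellate cells, cholangiocytes and hepatocytes, and they set which leukocytes enter the lobule and the portal tract. Every probe set of the array whose single gene symbol has the form of a chemokine or chemokine receptor name was taken: Ccl, Cxcl, Xcl and Cx3cl for ligands, and Ccr, Cxcr, Xcr and Cx3cr for receptors. This gave 65 of 22690 probe sets, which stand for 48 of the 12393 genes that the array names singly, of which 32 are ligands and 16 are receptors. The ligands have 42 probe sets and the receptors 23. A further 4 probe sets name a chemokine among several genes and were not taken.

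Liver RNA of 12 male mice was hybridised to Affymetrix MOE430A arrays, with 1 array for each mouse and 3 mice in each of 4 groups. Het_3M and Het_12M are heterozygous controls aged 3 and 12 months, and KO_3M and KO_12M are homozygous Mdr2-KO mice of the same ages. The heterozygotes carry 1 disrupted copy of Mdr2, so no group is wild type. Mdr2, now named Abcb4, exports phospholipid into bile, and mice without it develop bile duct inflammation and later hepatocellular carcinoma.

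Each value is a MAS 5.0 signal, a linear intensity of 1 probe set on 1 array. Signals of different probe sets are not comparable as levels, so each probe set is compared only with itself. A probe set entered the tests if its signal reached the array's own median in 3 or more of the 12 mice, and differences are given on the scale log2(signal + 16), which understates the change of dim probe sets. Differences were tested with limma over all 12977 probe sets that passed, with Benjamini-Hochberg adjustment, and a probe set is called at an adjusted p under 0.05. An error after a log2 fold change is limma's standard error, and n is 3 mice in each group. The arrays were washed and scanned in 3 sessions, and no session holds both genotypes at the same age. Session 1 holds Het_12M and mouse 1 of Het_3M, session 2 mice 2 and 3 of Het_3M with mice 1 and 2 of KO_12M, and session 3 KO_3M with mouse 3 of KO_12M. The median signal of an array ran from 58.2 to 60.4 in Het_3M, from 49.8 to 54.4 in KO_3M, from 59.2 to 64.8 in Het_12M and from 62.4 to 71.4 in KO_12M. The 3' to 5' ratio of the actin control, a measure of RNA integrity, averaged 7.0, 4.92, 3.64 and 2.79 in the same order. For mouse 1 of Het_3M and mouse 1 of KO_3M the source label gives 12 months, against 3 months in the title and age field, which were followed.

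Of the 65 probe sets, 24 (36.9%) passed the filter, against 57.4% of all probe sets. They stand for 20 genes. Among ligands 22 of 42 probe sets passed, and among receptors 2 of 23, those of Cxcr3 and Ccr4. On no array did 38 of the 65 reach the median, 18 of ligands and 20 of receptors, and 8 reached it on all 12 arrays. Ccl5 lies just inside the filter, at or above the median on 3 arrays, all of KO_3M. Just outside it lie Cxcl14 1418457_at and Cxcr6 1425832_a_at with 2 arrays each, and Xcl1 with 1. Ccl5, Ccl6 1420249_s_at and Cx3cl1 1415803_at reached the median only on knockout arrays, so they passed through the genotype in which they are higher. Cxcl9 reached it on 3 arrays of KO_3M, 1 of Het_3M and 1 of KO_12M, so without KO_3M it would not have passed. The heat map of all probe sets by array shows the values behind these counts.

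**Figure D1:**
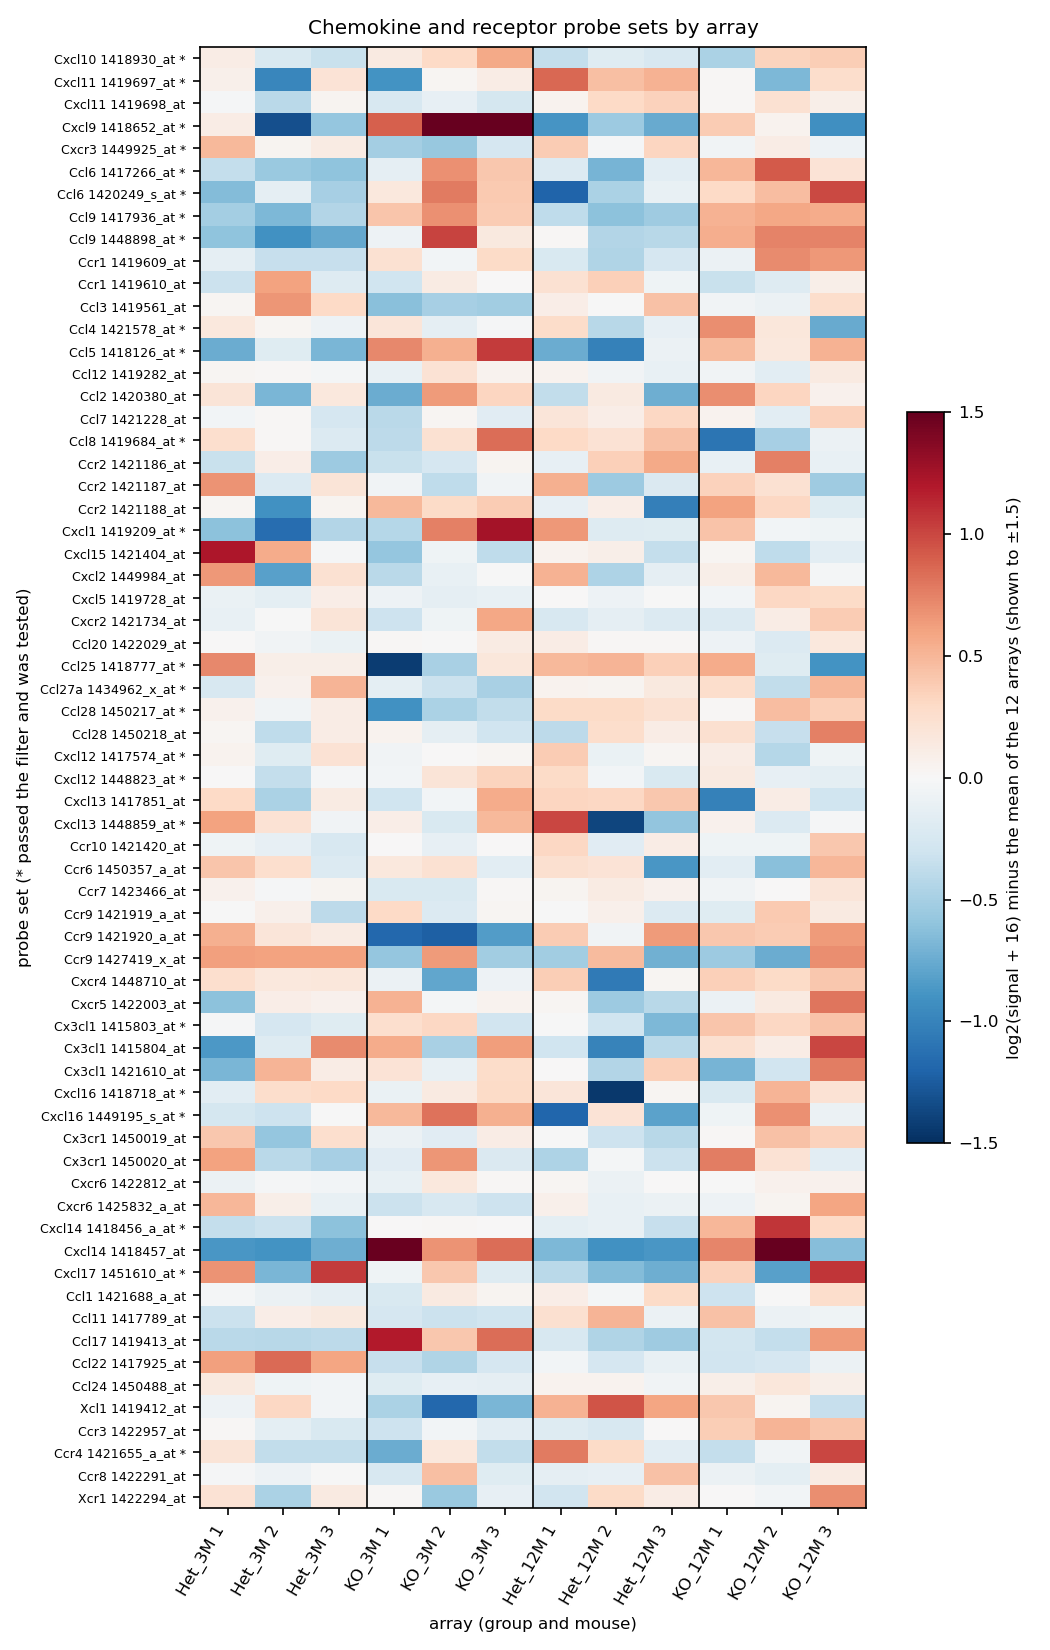
Heat map of the 65 chemokine and receptor probe sets (rows, grouped by ligand-receptor system) on the 12 arrays (columns, 3 mice in each of 4 groups), coloured by log2(signal + 16) minus the probe set's mean over the arrays, with an asterisk at the 24 that passed the filter. Ccl9 1417936_at, Ccl6 1420249_s_at and Ccl5 are warm in all 6 knockout columns, whereas Cxcl9 is at its highest in KO_3M.

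Knockout against heterozygous livers at 3 months gave 8 called probe sets of 24, 6 higher and 2 lower. Over all probe sets tested 21.2% were called at this age, 9.55% higher and 11.6% lower. Without overlap between the genotypes, 10 of the 24 lay above and 2 below, against 16.4% and 23.2% of all probe sets. At 12 months 6 of 24 were called, all higher, where 9.46% of all probe sets were called, 5.86% higher and 3.6% lower. Without overlap 7 lay above and 2 below, against 14.7% and 12.9% of all probe sets. The median log2 difference of the 24 was 0.22 at 3 months and 0.30 at 12 months, beside -0.06 and -0.00 over all probe sets tested. These counts and medians are a description only, since they include the 3 probe sets that passed the filter only through knockout arrays. Of these 3, Ccl5 is among the calls at both ages and Ccl6 1420249_s_at at 12 months, and both are among the probe sets without overlap at each age, with Cx3cl1 1415803_at at 12 months. Cxcl9, which passed only with the KO_3M arrays, is among the calls and the probe sets without overlap at 3 months. The 4 probe sets called at both ages belong to Ccl9, Ccl6 and Ccl5. Cxcl9 and Cxcl1 were called higher, and Cxcr3 and Ccl28 lower, at 3 months. Cxcl14 and a second Ccl6 probe set were called higher at 12 months. Scaling each array to its median in place of its trimmed mean shifted the median of all probe sets by 0.17 at 3 months and turned the split of calls there from 6 higher and 2 lower into 11 and 0. Over all probe sets the same change of scaling moved the calls at 3 months from 9.55% higher and 11.6% lower to 15.5% higher and 6.2% lower. Quantile normalization gave 7 and 1 at 3 months, and either scaling gave 5 higher and 1 lower at 12 months. With the scan session as a block the calls fell to 2 at 3 months and 0 at 12 months, while those over all 12977 probe sets fell from 2749 to 415 and from 1228 to 91. In bulk liver a change in the number of cells of a type and a change in RNA per cell cannot be told apart.

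**Figure D2:**
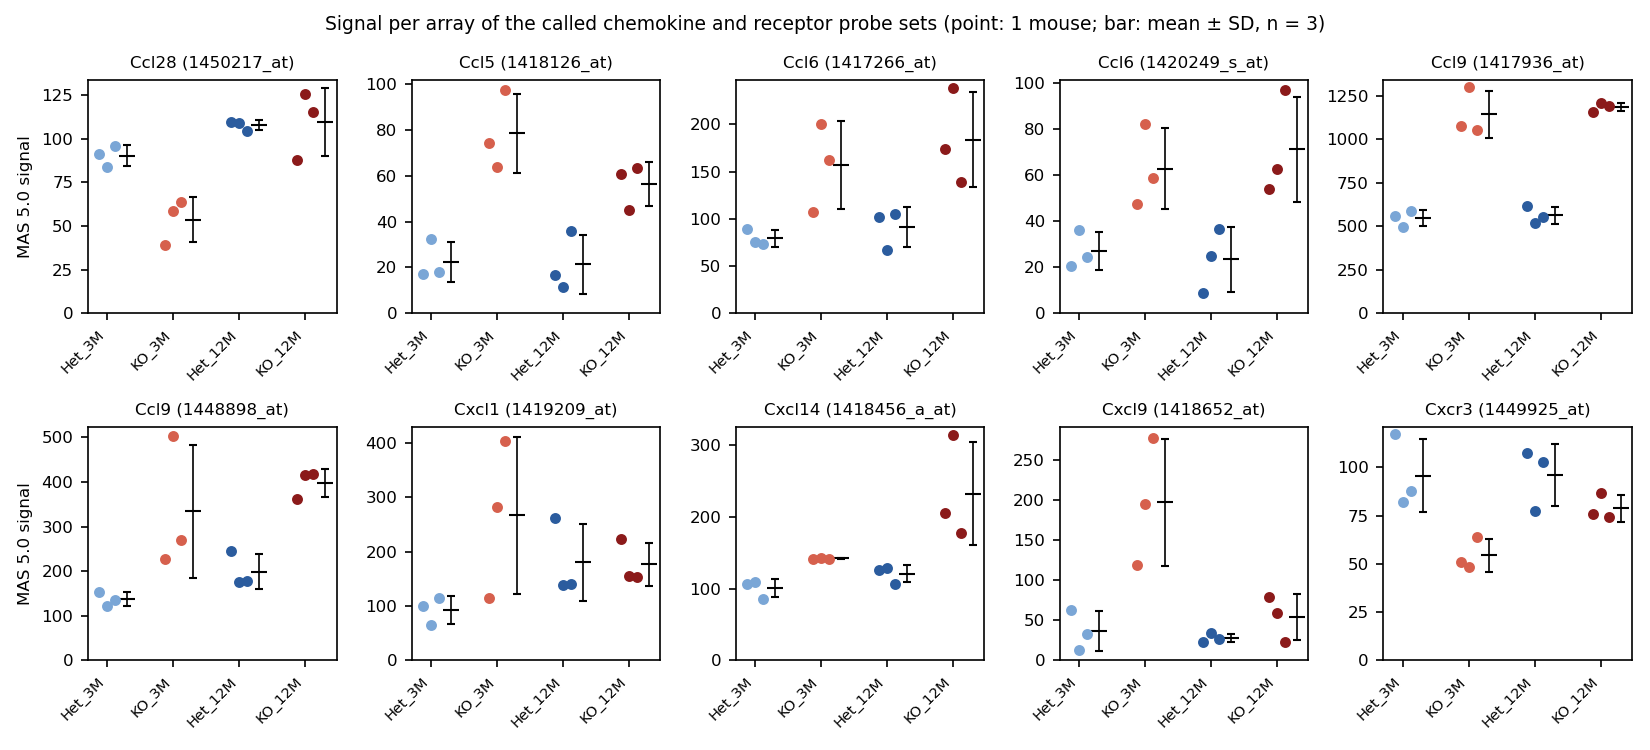
MAS 5.0 signal (linear y axis, from 0) of the 10 probe sets called between genotypes, with 1 point for each of the 3 mice in Het_3M, KO_3M, Het_12M and KO_12M, and the mean ± SD beside them. The knockout points lie above the heterozygous points at both ages for both Ccl9 probe sets, both Ccl6 probe sets, Ccl5 and Cxcl14.

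**Figure D3:**
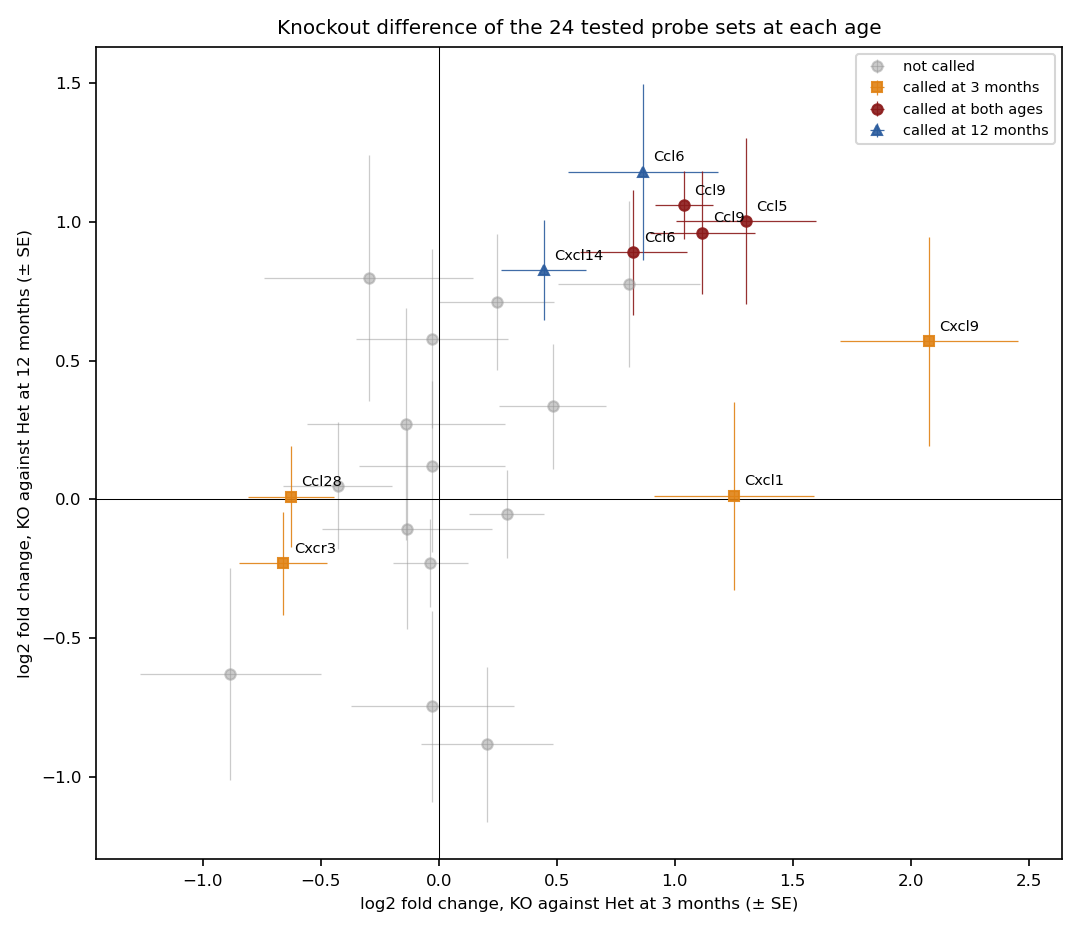
The log2 fold change of KO against Het at 3 months (x axis) and at 12 months (y axis) for the 24 tested probe sets, with bars of ± 1 standard error and symbols for the age at which each was called. Ccl9, Ccl6 and Ccl5 lie between 0.83 and 1.30 on the x axis and between 0.89 and 1.18 on the y axis, whereas Cxcl9 at 2.08 and Cxcl1 at 1.25 on the x axis lie at 0.57 and 0.01 on the y axis.

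Promoter windows are printed for Ccl9 and Ccl6, neighbouring genes that were called at both ages, for Cxcl9, which had the highest log2 fold change at 3 months among the 24 tested, with its fellow Cxcr3 ligand Cxcl10, and for Cxcl1. Each runs over the 250 bases before the annotated start, 5' to 3' on the gene's own strand, from RefSeq (GRCm38.p6). Capitals mark matches on either strand to the interferon-stimulated response element (ISRE, TTTC, any 2 bases and TTTC), the NF-kappaB consensus or the AP-1 motif (TGANTCA). The windows are chr11:83578637-83578886, minus strand for Ccl9, chr11:83593088-83593337, minus strand for Ccl6, chr5:92328080-92328329, minus strand for Cxcl9, chr5:92348890-92349139, minus strand for Cxcl10 and chr5:90890995-90891244, plus strand for Cxcl1.
Ccl9: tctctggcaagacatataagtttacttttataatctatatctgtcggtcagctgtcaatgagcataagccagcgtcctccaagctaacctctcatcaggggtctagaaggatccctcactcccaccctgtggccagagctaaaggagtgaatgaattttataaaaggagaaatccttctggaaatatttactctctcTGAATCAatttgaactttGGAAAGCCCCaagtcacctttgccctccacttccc
Ccl6: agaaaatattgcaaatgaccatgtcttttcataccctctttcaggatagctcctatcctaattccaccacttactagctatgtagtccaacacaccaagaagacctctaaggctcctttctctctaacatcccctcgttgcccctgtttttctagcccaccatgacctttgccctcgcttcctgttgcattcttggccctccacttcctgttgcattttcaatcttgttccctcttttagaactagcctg
Cxcl9: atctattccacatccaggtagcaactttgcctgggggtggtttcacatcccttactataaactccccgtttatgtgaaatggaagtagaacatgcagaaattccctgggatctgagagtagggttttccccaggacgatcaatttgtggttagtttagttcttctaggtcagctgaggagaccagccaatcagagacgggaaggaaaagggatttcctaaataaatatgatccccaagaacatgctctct
Cxcl10: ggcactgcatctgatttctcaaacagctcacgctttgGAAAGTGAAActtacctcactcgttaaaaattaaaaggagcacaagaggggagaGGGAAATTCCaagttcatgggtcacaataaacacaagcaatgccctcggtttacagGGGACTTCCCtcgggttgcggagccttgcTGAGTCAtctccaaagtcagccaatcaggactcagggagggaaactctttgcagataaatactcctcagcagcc
Cxcl1: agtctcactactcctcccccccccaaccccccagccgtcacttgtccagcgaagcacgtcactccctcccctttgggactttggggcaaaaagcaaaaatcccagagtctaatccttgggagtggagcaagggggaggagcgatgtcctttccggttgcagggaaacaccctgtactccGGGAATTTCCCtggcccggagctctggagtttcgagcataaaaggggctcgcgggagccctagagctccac

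The Ccl9 window holds an AP-1 match from 53 to 47 bases and an NF-kappaB match from 35 to 26 bases before the start. The Cxcl10 window holds an ISRE match at 213 to 204, NF-kappaB matches at 159 to 150 and 103 to 94, and an AP-1 match at 74 to 68 bases before the start. The Cxcl1 window holds overlapping NF-kappaB matches on the plus strand, from 71 to 62, and on the minus strand, from 70 to 61 bases before the start. None of the 3 motifs has a match in the Ccl6 and Cxcl9 windows. Of the 48 genes 35 have a promoter entry, with 39 entries in all. Over the 250 bases before the start 2 of these genes hold an ISRE, 7 the NF-kappaB consensus and 5 an AP-1 match in any of their entries. Among all 32851 promoter windows of that length, counted by entry and not by gene, the shares were 2.98%, 3.90% and 6.75%. A match describes the letters only and is no binding site.

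Ccl9 and Ccl6 are mouse CC chemokines that attract myeloid cells through the receptor Ccr1 and are made largely by macrophages. The signal of Ccl9 1417936_at was 557.1, 497.8 and 585.7 in Het_3M, 1076.8, 1300.7 and 1054.2 in KO_3M, 614.7, 518.5 and 551.7 in Het_12M, and 1158.9, 1207.9 and 1189.9 in KO_12M. Every knockout mouse lay above every heterozygous mouse, at either age. The rise was 1.04 ± 0.12 (adjusted p = 3.69e-05) at 3 months and 1.06 ± 0.12 (adjusted p = 4.23e-05) at 12 months on the log2 scale, which corresponds to mean signal ratios of 2.09 and 2.11. The second probe set, 1448898_at, read 154.1, 122.0 and 135.0 in Het_3M, 228.0, 503.4 and 269.7 in KO_3M, 244.7, 174.6 and 176.9 in Het_12M, and 361.7, 415.4 and 417.4 in KO_12M. It separated the genotypes at each age too, with mouse 2 of KO_3M well above its group, and rose by 1.12 ± 0.22 (adjusted p = 0.00239) and 0.96 ± 0.22 (adjusted p = 0.0104). Both probe sets kept their calls without any single array. With the scan session as a block 1417936_at stood at 1.05 ± 0.24 (adjusted p = 0.0348) at 3 months and 1.10 ± 0.24 (adjusted p = 0.0571) at 12 months, and 1448898_at at 1.09 ± 0.44 (adjusted p = 0.173) and 1.16 ± 0.44 (adjusted p = 0.306).

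Ccl6 1417266_at read 89.6, 75.4 and 72.8 in Het_3M, 107.2, 200.6 and 162.6 in KO_3M, 101.4, 67.1 and 104.8 in Het_12M, and 174.0, 238.5 and 139.1 in KO_12M. The knockout mice were the higher at both ages, with a wider spread than the controls, and the rises were 0.83 ± 0.23 (adjusted p = 0.0166) and 0.89 ± 0.23 (adjusted p = 0.0185). The dimmer 1420249_s_at read 20.4, 36.0 and 24.5 in Het_3M, 47.4, 82.0 and 58.6 in KO_3M, 8.7, 24.9 and 36.7 in Het_12M, and 54.0, 62.4 and 96.8 in KO_12M. Its groups did not overlap either, with differences of 0.87 ± 0.32 (adjusted p = 0.0629) at 3 months, which was not called, and 1.18 ± 0.32 (adjusted p = 0.0261) at 12 months. The 3-month difference was called with median scaling (1.02, adjusted p = 0.0278), quantile normalization (0.99, adjusted p = 0.0355), no intensity trend (adjusted p = 0.0417), only the groups compared (adjusted p = 0.0411), the replicate block (adjusted p = 0.0453) and array weights (adjusted p = 0.0456), and without mouse 1 of Het_12M (adjusted p = 0.0367). The 3-month call of 1417266_at was lost without mouse 2 or 3 of Het_3M or mouse 2 or 3 of KO_3M (log2 fold changes 0.80, 0.78, 0.64 and 0.78), and its 12-month call without mouse 2 of Het_12M (0.72) or mouse 2 of KO_12M (0.70). With the actin ratio as a covariate both calls of 1417266_at were lost (0.47 and 0.64, adjusted p = 0.193 and 0.0771). The 12-month call of 1420249_s_at was lost without mouse 1 or 2 of Het_12M (0.88 and 1.24) or mouse 2 or 3 of KO_12M (1.24 and 0.98). It was lost too with only the groups compared, the setting that added its 3-month call. With the session block none of these calls held, and the 1417266_at differences were 1.41 ± 0.41 and 1.29 ± 0.41 (adjusted p = 0.0762 and 0.208).

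Ccr1, the receptor of both ligands, was dim. Its probe set 1419609_at read 7.6, 4.4 and 4.4 in Het_3M, 14.4, 9.1 and 15.6 in KO_3M, 6.1, 2.9 and 5.8 in Het_12M, and 8.3, 26.1 and 24.5 in KO_12M, below the array median throughout. The knockout arrays lay above their controls at each age, by 0.43 ± 0.20 (adjusted p = 0.167) and 0.73 ± 0.20 (adjusted p = 0.0479) in the fit without the filter. Either other scaling in that fit took the 12-month difference out of the calls (adjusted p = 0.0662 and 0.0546). The second Ccr1 probe set, 1419610_at, read between 1.0 and 16.6 and its groups overlapped at both ages.

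Markers of macrophages, the main known source of Ccl6 and Ccl9, were also higher in the knockout livers. Among all probe sets tested 9.55% were called higher and 11.6% lower at 3 months, and 5.86% higher at 12 months. Of 11 tested macrophage markers 8 rose and 1 fell at 3 months, and 5 rose at 12 months. Their summed signal ran from 2573.4 to 2853.4 in Het_3M, 4754.5 to 8007.8 in KO_3M, 2886 to 3212.5 in Het_12M and 5153.7 to 5714.6 in KO_12M. Lyz2, the lysozyme of myeloid cells, rose by 1.98 and 2.01, and C1qc, a complement subunit made by macrophages, by 1.90 and 1.32 at 3 and 12 months. C1qa rose by 2.03 and 1.28. The marker that fell at 3 months was Adgre1, which encodes F4/80, by 0.64 on the log2 scale. The part of these cells in the chemokine differences was not tested.

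Ccl5, Ccl3 and Ccl4 are CC chemokines that attract T cells, NK cells and monocytes. Ccl5 read 16.9, 32.6 and 18.1 in Het_3M, 74.4, 63.7 and 97.4 in KO_3M, 16.8, 11.2 and 35.8 in Het_12M, and 60.6, 45.2 and 63.2 in KO_12M. The genotypes did not overlap at either age, and Ccl5 rose by 1.30 ± 0.30 (adjusted p = 0.00627) at 3 months and 1.00 ± 0.30 (adjusted p = 0.044) at 12 months, with mean signal ratios of 3.48 and 2.65. The 3-month call held without any single array and was lost without both arrays whose source label gives another age (1.22 ± 0.39, adjusted p = 0.0529). The 12-month call was lost with median scaling (0.92, adjusted p = 0.0622), quantile normalization (0.89, adjusted p = 0.0621), the replicate block (1.00, adjusted p = 0.0541) and no filter (1.00, adjusted p = 0.0521). Fitting only the groups compared, or leaving out both arrays whose source label gives another age, took this call out as well. It was also lost without mouse 3 of Het_3M, any mouse of KO_3M, mouse 1 or 2 of Het_12M or any mouse of KO_12M, where the fold change lay between 0.80 and 1.12 and the adjusted p reached 0.164. The session block gave 0.99 ± 0.56 (adjusted p = 0.333) and 0.62 ± 0.56 (adjusted p = 0.766).

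Ccl4 read 60.6, 53.9 and 48.9 in Het_3M, 61.7, 46.4 and 51.7 in KO_3M, 67.1, 35.4 and 46.6 in Het_12M, and 94.7, 60.7 and 24.4 in KO_12M. Its groups overlapped, with differences of -0.03 ± 0.31 (adjusted p = 0.961) and 0.12 ± 0.31 (adjusted p = 0.87). Ccl3 did not pass the filter: it read 11.4, 26.6 and 17.2 in Het_3M, 1.4, 3.0 and 2.8 in KO_3M, 12.9, 10.7 and 20.4 in Het_12M, and 10, 9.3 and 16.2 in KO_12M. The KO_3M values all lay under those of Het_3M, by -0.88 ± 0.19 (adjusted p = 0.0074) without the filter, and the 12-month groups overlapped. At the dim end the whole KO_3M arrays were lower: their 10th percentile signal was 4.1 to 4.8, against 5.7 to 6.0 in Het_3M. In the RefSeq annotation of GRCm38.p6 the protein-coding genes Ccl5, Ccl9, Ccl6, Ccl3 and Ccl4 follow each other in this order on chromosome 11. The first 3 were called higher at both ages, though Ccl5 passed the filter only through the KO_3M arrays. Ccl4 was tested and not called, whereas Ccl3 did not enter the tests, so the filter decides part of this contrast.

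Cxcl9, Cxcl10 and Cxcl11 are ligands of Cxcr3, the receptor of effector T and NK cells, and are known as products of interferon-stimulated cells. Cxcl9 read 62.6, 13.2 and 32.6 in Het_3M, 119.1, 195.6 and 277.4 in KO_3M, 23.4, 33.6 and 27.0 in Het_12M, and 78.9, 59.3 and 22.4 in KO_12M. All KO_3M mice lay above all Het_3M mice, whereas mouse 3 of KO_12M lay below every Het_12M mouse. Cxcl9 rose by 2.08 ± 0.38 (adjusted p = 0.0013) at 3 months, a mean signal ratio of 5.46, and differed by 0.57 ± 0.38 (adjusted p = 0.405) at 12 months. The 3-month call held without any single array and with the session block, under which the difference was 3.57 ± 0.54 (adjusted p = 0.00386). The block links KO_3M to Het_3M only through mouse 3 of KO_12M, the lowest of its group, so the block value depends on that array. Cxcl9 passed the filter only with the KO_3M arrays, on which it is highest.

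Cxcl10 read 91.0, 68.4 and 62.6 in Het_3M, 92.4, 105.4 and 131.1 in KO_3M, 61.1, 71.1 and 68.0 in Het_12M, and 55.0, 108.9 and 111.9 in KO_12M. The 3-month groups were barely apart, at 0.48 ± 0.23 (adjusted p = 0.137), a difference that was called with median scaling (0.65, adjusted p = 0.04). Mouse 1 of KO_12M lay below the Het_12M mice, with a difference of 0.34 ± 0.23 (adjusted p = 0.41). Cxcl11 1419697_at read 60.8, 20.9 and 67.9 in Het_3M, 22.9, 58.1 and 62.1 in KO_3M, 116.1, 83.4 and 88.4 in Het_12M, and 57.3, 29.5 and 71.3 in KO_12M. Its 3-month groups overlapped, and at 12 months all knockout mice lay below the controls by -0.75 ± 0.34, which was not called (adjusted p = 0.207). The other Cxcl11 probe set, 1419698_at, read between 14.3 and 35.0 and did not pass the filter.

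The receptor moved opposite to Cxcl9 at 3 months. Cxcr3 read 117.2, 82.1 and 87.6 in Het_3M, 50.9, 48.3 and 64 in KO_3M, 107.4, 77.5 and 102.8 in Het_12M, and 75.6, 86.8 and 74.1 in KO_12M. All KO_3M mice lay below Het_3M, whereas the 12-month groups overlapped. Cxcr3 fell by 0.66 ± 0.19 (-0.66, adjusted p = 0.0201) at 3 months and differed by -0.23 ± 0.19 (adjusted p = 0.509) at 12 months. This call was lost with median scaling (-0.51, adjusted p = 0.0531), with the actin ratio as a covariate (-0.72, adjusted p = 0.0526), without both arrays whose source label gives another age (-0.49, adjusted p = 0.174), with the session block (-0.42 ± 0.33, adjusted p = 0.497), and without mouse 1 of Het_3M (-0.52), mouse 1 of KO_3M (-0.63) or mouse 2 of KO_3M (-0.60). Among all probe sets tested 9.55% were called higher and 11.6% lower at 3 months, and 9.46% in either direction at 12 months. Of 5 tested T and NK cell markers none rose and 1, Cd8a, fell by 1.31 on the log2 scale at 3 months, and none was called at 12 months. Their summed signal was 527.6 to 667.6 in Het_3M, 348.4 to 531.6 in KO_3M, 509.5 to 621.8 in Het_12M and 466.3 to 654.9 in KO_12M. Their part in the Cxcr3 and Cxcl9 values was not tested.

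Cxcl1, Cxcl2 and Cxcl5 attract neutrophils through Cxcr2, and Cxcl15 is a further neutrophil-attracting ligand known mainly from mouse lung. Cxcl1 read 99.9, 64.4 and 114.8 in Het_3M, 115.0, 283.3 and 403.2 in KO_3M, 262.5, 139.1 and 140.0 in Het_12M, and 222.6, 155.9 and 152.7 in KO_12M. The lowest KO_3M mouse was level with the highest Het_3M mouse, the other two were far above, and the 12-month groups overlapped. Cxcl1 rose by 1.25 ± 0.34 (adjusted p = 0.0155) at 3 months and differed by 0.01 ± 0.34 (adjusted p = 0.988) at 12 months. The call was lost without mouse 2 of Het_3M (1.05), mouse 2 of KO_3M (1.13) or mouse 3 of KO_3M (0.89), with the actin ratio as a covariate (0.67 ± 0.33, adjusted p = 0.195), and with the session block (1.57 ± 0.67, adjusted p = 0.202).

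The other members of the Cxcr2 system did not reach the array median. Cxcl2 read between 5.2 and 42.4, Cxcl5 between 1.0 and 7.4, and Cxcr2 between 11.3 and 34.6, and in each the genotypes overlapped at both ages. Cxcl15 read 58.2, 31.0 and 15.4 in Het_3M and 5.4, 14.4 and 8.6 in KO_3M. Its KO_3M values lay below all of Het_3M, by -0.92 ± 0.27 (adjusted p = 0.0378) without the filter, and the call was lost with quantile normalization (adjusted p = 0.0644). None of the 5 tested neutrophil markers was called at either age, where 21.2% and 9.46% of all probe sets were called. The summed signal of these markers was 412.1 to 476.6 in Het_3M, 336.6 to 380 in KO_3M, 458.7 to 472 in Het_12M and 376.8 to 690.1 in KO_12M.

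Ccl2, Ccl7 and Ccl12 draw monocytes from the blood through Ccr2, and Ccl8 lies in the same gene cluster. Of their 7 probe sets, Ccr2 included, only that of Ccl8 passed the filter. Ccl8 read 115.5, 95.8 and 79.8 in Het_3M, 68.1, 113.1 and 181.9 in KO_3M, 119.8, 112.6 and 133.6 in Het_12M, and 35.5, 62.0 and 87.7 in KO_12M. The 3-month groups overlapped (0.20 ± 0.28, adjusted p = 0.65), and at 12 months every knockout mouse lay below every control. That difference, -0.88 ± 0.28, was not called (adjusted p = 0.0592), but it was called lower with median scaling (-0.95, adjusted p = 0.0306) and with quantile normalization (-0.96, adjusted p = 0.0281). It was also called without mouse 1 or mouse 3 of KO_3M (adjusted p = 0.0303 and 0.0344) and without mouse 3 of KO_12M (-1.12, adjusted p = 0.0292).

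Ccl2 read 31.4, 9.8 and 30.1 in Het_3M, 8.8, 48.7 and 35.6 in KO_3M, 16.1, 29.3 and 8.9 in Het_12M, and 51.3, 35.8 and 27.2 in KO_12M. The genotypes overlapped at both ages, with differences of 0.18 ± 0.36 (adjusted p = 0.781) and 0.69 ± 0.36 (adjusted p = 0.356) without the filter. Ccl7 read between 17.4 and 40.1 and Ccl12 between 1.2 and 6.3, also with overlap. The 3 probe sets of Ccr2 disagreed in sign at 3 months: 1421188_at read 25.7, 5.9 and 26.1 in Het_3M and 41.3, 34.2 and 37.5 in KO_3M, a difference of 0.67 ± 0.33 (adjusted p = 0.199), whereas 1421187_at gave -0.38 ± 0.31 (adjusted p = 0.453) and 1421186_at 0.08 ± 0.28 (adjusted p = 0.879).

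Cxcl14 is a CXC chemokine of epithelia and stroma, and Cxcl17 one of mucosal surfaces. Cxcl14 1418456_a_at read 106.0, 109.5 and 86.1 in Het_3M, 141.6, 142.7 and 141.6 in KO_3M, 125.7, 129.0 and 107.0 in Het_12M, and 205.3, 313.3 and 177.4 in KO_12M. The genotypes did not overlap at either age. The difference was 0.44 ± 0.18 (adjusted p = 0.0879) at 3 months, called with median scaling (0.61, adjusted p = 0.0335), with array weights (adjusted p = 0.0436) and without mouse 2 of KO_12M (adjusted p = 0.0397), and Cxcl14 rose by 0.83 ± 0.18 (adjusted p = 0.00731) at 12 months, a mean signal ratio of 1.92. The 12-month call held without any single array, between 0.60 and 0.99, and was lost with the session block (1.09 ± 0.31, adjusted p = 0.149).

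The second Cxcl14 probe set, 1418457_at, read 3.2, 2.8 and 5.2 in Het_3M, 82.2, 40.1 and 47.0 in KO_3M, 6.0, 2.7 and 3.2 in Het_12M, and 42.2, 111.1 and 6.6 in KO_12M. It was near the floor of the array in all 6 heterozygous mice and in mouse 3 of KO_12M. Without the filter it was higher by 1.83 ± 0.44 (adjusted p = 0.014) at 3 months, and the 12-month difference was 1.47 ± 0.44 (adjusted p = 0.0717). At 3 months it was also called with median scaling and quantile normalization in that fit (1.99 and 1.98). Cxcl17 read 84.0, 23.2 and 114.1 in Het_3M, 44.3, 67.1 and 38.9 in KO_3M, 31.4, 24 and 21.9 in Het_12M, and 63.7, 19.7 and 116.5 in KO_12M. Its groups overlapped, with differences of -0.30 ± 0.44 (adjusted p = 0.678) and 0.80 ± 0.44 (adjusted p = 0.308). Markers of cholangiocytes and of stellate cells moved with genotype as well, where 9.55% of all probe sets were called higher at 3 months and 5.86% at 12 months. Of 7 cholangiocyte markers on the array 2 were tested, Epcam and Cdh1. Both rose at 3 months, and at 12 months Cdh1 rose by 1.63 while Epcam was not called. The summed cholangiocyte signal was 258.4 to 283.5 in Het_3M, 588.1 to 701.8 in KO_3M, 187.8 to 246.9 in Het_12M and 531 to 845.5 in KO_12M. Of 10 stellate cell and fibroblast markers 6 rose at 3 months and 5 at 12 months, among them Col3a1 by 2.40 and 1.34 and Lum by 1.97 and 1.90, with a summed signal of 1700.5 to 1774.4, 3479.2 to 4269.6, 1732 to 2178.6 and 3099.1 to 3681.3 in the same order of groups. Their part in the Cxcl14 values was not tested.

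Cx3cl1 and Cxcl16 are the ligands made as transmembrane proteins, with Cx3cr1 on monocytes and Cxcr6 on NKT and T cells as receptors. None of the 3 tested probe sets of this group was called. Cx3cl1 1415803_at read 47.4, 37.9 and 40.9 in Het_3M, 60.5, 64 and 36.9 in KO_3M, 48.1, 36.2 and 24.5 in Het_12M, and 70.0, 63.6 and 70.7 in KO_12M. The 3-month groups overlapped and those at 12 months did not, with a difference of 0.71 ± 0.24 (adjusted p = 0.0826), which was called with no intensity trend (adjusted p = 0.0367) and with array weights (adjusted p = 0.0483). A dimmer probe set, 1415804_at, differed by 1.02 ± 0.40 at 12 months (adjusted p = 0.186 without the filter), and 1421610_at by -0.05 ± 0.36 (adjusted p = 0.97). Of its receptor, Cx3cr1 1450019_at read 13.6, 23.7 and 21.3 in KO_12M against 13.1, 7.7 and 6.0 in Het_12M, apart by a narrow margin (0.51 ± 0.24, adjusted p = 0.283), and 1450020_at overlapped.

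Cxcl16 1449195_s_at read 57.4, 55.0 and 72.2 in Het_3M, 107.8, 139.6 and 111.7 in KO_3M, 22.7, 85.8 and 34.8 in Het_12M, and 68.3, 126.6 and 67.4 in KO_12M. The genotypes were apart at 3 months, by 0.81 ± 0.30 (adjusted p = 0.0661), and overlapped at 12 months through mouse 2 of Het_12M, by 0.77 ± 0.30 (adjusted p = 0.125). Neither was called, but the 3-month difference was called without mouse 1 or mouse 2 of Het_12M (adjusted p = 0.041 and 0.024), and without mouse 2 of Het_12M the 12-month difference became 1.17 (adjusted p = 0.0129). At 3 months it was also called with median scaling (0.97, adjusted p = 0.035), an offset of 64 (0.55, adjusted p = 0.0462), only the groups compared (adjusted p = 0.0097) and the replicate block (adjusted p = 0.0392). The brighter probe set, 1418718_at, read 104.0, 144.9 and 148.8 in Het_3M and 109.3, 130.5 and 147.5 in KO_3M, with a difference of -0.03 ± 0.32 (adjusted p = 0.962), so the probe sets of this gene disagree at 3 months. Cxcr6 1425832_a_at read 78.9, 55.1 and 45.9 in Het_3M and 37.6, 40.8 and 37.9 in KO_3M, lower without overlap by -0.45 ± 0.24 (adjusted p = 0.227 without the filter). The other Cxcr6 probe set, 1422812_at, read between 0.4 and 3.7.

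Cxcl12, which retains haematopoietic cells and lymphocytes through Cxcr4, was at or above the array median on every array. Its probe set 1417574_at read 1052.8, 897.9 and 1183.8 in Het_3M, 976.0, 1024.8 and 1038.8 in KO_3M, 1326.5, 944.9 and 1038.9 in Het_12M, and 1097.8, 753.5 and 969.6 in KO_12M. The groups overlapped throughout, with differences of -0.04 ± 0.16 (adjusted p = 0.9) and -0.23 ± 0.16 (adjusted p = 0.423). The probe set 1448823_at gave 0.29 ± 0.16 (adjusted p = 0.207) at 3 months, which was called with median scaling (0.47, adjusted p = 0.0475), and -0.05 ± 0.16 (adjusted p = 0.889) at 12 months. Cxcr4 read 35.8, 32.2 and 32.6 in Het_3M and 24.8, 9.2 and 25.0 in KO_3M, below the median on all arrays and lower without overlap by -0.51 ± 0.32 (adjusted p = 0.315 without the filter).

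Ccl28, Ccl27a and Ccl25 are chemokines of epithelia that act through Ccr10, Ccr3 and Ccr9. Ccl28 1450217_at read 91.4, 83.7 and 95.6 in Het_3M, 38.8, 58.3 and 63.7 in KO_3M, 109.5, 109.3 and 104.7 in Het_12M, and 88.0, 125.6 and 115.5 in KO_12M. The KO_3M mice lay below all other mice, and the 12-month genotypes overlapped. Ccl28 fell by 0.63 ± 0.18 (-0.63, adjusted p = 0.0229) at 3 months and differed by 0.01 ± 0.18 (adjusted p = 0.985) at 12 months. The call was lost with median scaling (-0.48, adjusted p = 0.0617), quantile normalization (-0.50, adjusted p = 0.0515) and the session block (-0.73 ± 0.35, adjusted p = 0.244), and without mouse 1 of Het_3M (-0.62), mouse 3 of Het_3M (-0.59) or mouse 1 of KO_3M (-0.46). It was lost as well without both arrays whose source label gives another age. The dim probe set 1450218_at read between 4.5 and 29.4 with overlap at both ages.

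Ccl25 read 95.5, 56.2 and 56.3 in Het_3M, 9.3, 32.3 and 60 in KO_3M, 79.2, 80.5 and 71.0 in Het_12M, and 83.8, 43.8 and 20.3 in KO_12M. The knockout mice spread widely and overlapped the controls at both ages, with differences of -0.88 ± 0.38 (adjusted p = 0.11) and -0.63 ± 0.38 (adjusted p = 0.355). The 3-month difference was called only when mouse 3 of KO_3M was left out (-1.26, adjusted p = 0.0381). Its receptor Ccr9, which directs lymphocytes to the gut, has 3 probe sets, none at the array median. Ccr9 1421920_a_at read 42.2, 29.6 and 27.8 in Het_3M, 1.9, 1.3 and 6.6 in KO_3M, 36.7, 23.0 and 46.9 in Het_12M, and 37.5, 36.6 and 46.6 in KO_12M. Its KO_3M values stood below those of all other mice, by -1.35 ± 0.23 (adjusted p = 0.00201) without the filter, and 1427419_x_at and 1421919_a_at were not called (-0.75 ± 0.41 and 0.14 ± 0.20, adjusted p = 0.238 and 0.679).

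Ccl27a read between 56.9 and 128.7 and was not called at either age. Cxcl13, which with Cxcr5 organises B cell follicles, read 96.8, 70.6 and 55.9 in Het_3M, 63.5, 47.6 and 88.1 in KO_3M, 133.1, 12.7 and 33.5 in Het_12M, and 62.2, 48.5 and 57.8 in KO_12M with 1448859_at. The Het_12M mice alone covered the range of all other groups, and the differences were -0.14 ± 0.42 (adjusted p = 0.847) and 0.27 ± 0.42 (adjusted p = 0.765). The dimmer 1417851_at was lower without overlap at 12 months, by -0.74 ± 0.32 (adjusted p = 0.228 without the filter). Cxcr5 read between 4.7 and 39.3 and overlapped. Ccl20, which cholangiocytes are known to make, read between 4.6 and 10.6, and its receptor Ccr6 between 14.3 and 62.2. Ccr7, the lymph node homing receptor, read between 2.7 and 8.8 and Ccr10 between 5.2 and 17.1. In these 4 genes the genotypes overlapped at both ages and no difference was called without the filter.

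Ccl17 and Ccl22 are ligands of Ccr4, a receptor of regulatory and type-2 helper T cells, and in the RefSeq order they flank Cx3cl1 on chromosome 8. Neither ligand passed the filter. Ccl17 read 4.6, 4.4 and 4.7 in Het_3M, 46.2, 20.1 and 32.7 in KO_3M, 7.1, 3.9 and 2.9 in Het_12M, and 6.6, 5.2 and 26.6 in KO_12M. It was near the floor in every mouse except those of KO_3M and mouse 3 of KO_12M, and without the filter it was called higher at 3 months by 1.22 ± 0.25 (adjusted p = 0.00613). Ccl22 read 34.5, 43.2 and 33.5 in Het_3M, 9.8, 8.1 and 11.5 in KO_3M, 16, 11.7 and 14.5 in Het_12M, and 11, 11.7 and 15 in KO_12M. The Het_3M mice stood above the other 3 groups, and the KO_3M difference was -1.04 ± 0.17 (adjusted p = 0.00151). Both 3-month calls were also made with median scaling and with quantile normalization in the fit without the filter. Ccr4 read 55.0, 32.2 and 32.3 in Het_3M, 21.2, 53.7 and 32.1 in KO_3M, 91.0, 60.3 and 40.0 in Het_12M, and 32.5, 44.3 and 109.1 in KO_12M, and its groups overlapped (-0.14 ± 0.36 and -0.11 ± 0.36, adjusted p = 0.824 and 0.904).

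Ccl11 and Ccl24, the eotaxins, attract eosinophils through Ccr3. Ccr3 read 7.4, 4.9 and 3.8 in Het_3M, 2.7, 6.4 and 4.7 in KO_3M, 4.2, 3.5 and 7.3 in Het_12M, and 13.9, 16.8 and 14.8 in KO_12M. Only the KO_12M mice stood apart, though far below the array median, by 0.57 ± 0.13 (adjusted p = 0.019) without the filter. Ccl11 read between 1.7 and 15.7 with overlap at both ages, and Ccl24 between 8.4 and 15.3. Xcl1, which attracts cross-presenting dendritic cells through Xcr1, read 30.9, 45.1 and 31.8 in Het_3M, 19.4, 5.7 and 14.7 in KO_3M, 54.7, 78.9 and 58.1 in Het_12M, and 49.0, 34.5 and 22.9 in KO_12M. Its knockout mice lay below the controls at both ages, by -0.85 ± 0.27 (adjusted p = 0.0486 without the filter) and -0.65 ± 0.27 (adjusted p = 0.204), and with median scaling the 3-month call was lost (adjusted p = 0.0836). Xcr1 read between 19.9 and 69.8, and Ccl1 and its receptor Ccr8 between 3.2 and 14.9, with overlap in all comparisons of genotype.

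Over the 41 probe sets that did not pass the filter, the fit of all 22626 probe sets other than controls called 2 higher and 5 lower at 3 months and 2 higher at 12 months. With the 24 included it called 15 of 65 at 3 months and 7 of 65 at 12 months, where 13.8% and 5.29% of all probe sets were called. In that fit 6.13% of all probe sets were called higher and 7.66% lower at 3 months, and 3.46% higher at 12 months. The signals of the 41 ran from 0.4 to 111.1. The 5 lower calls at 3 months are of dim probe sets, and the 10th percentile signal of the KO_3M arrays was itself lower than in Het_3M (4.1 to 4.8 against 5.7 to 6.0). The part of this in those calls was not tested.

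Age was compared within each genotype. In heterozygous mice limma called none of the 24 probe sets, where 1.15% of all were called. At an unadjusted p under 0.05 there were 4 probe sets, of Ccl9, Cxcl1, Cxcl11 and Cxcl17. The share of all probe sets under that unadjusted threshold is not given here, so this count is a description only. In knockout mice 3 of 24 were called, against 8.95% of all, 5.79% higher and 3.15% lower. Cxcl9 was lower in KO_12M than in KO_3M by -1.64 ± 0.38 (adjusted p = 0.0165), without overlap, from 119.1 to 277.4 at 3 months down to 22.4 to 78.9 at 12 months. With the session block the difference was -2.40 ± 0.41 (adjusted p = 0.0119), and the call was lost without mouse 3 of KO_3M (-1.38) or mouse 3 of KO_12M (-1.27), and with the actin ratio as a covariate (-2.31 ± 0.49, adjusted p = 0.0536). Session 3 alone holds both knockout ages, so the block value of -2.40 is the distance of mouse 3 of KO_12M from the mean of KO_3M there. It rests on that array and is no separate result.

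Ccl28 was higher in KO_12M than in KO_3M by 0.86 ± 0.18 (adjusted p = 0.012), again without overlap, and Cxcl14 1418456_a_at by 0.61 ± 0.18 (adjusted p = 0.0448). Ccl28 kept this call without any single array and lost it with quantile normalization (0.63, adjusted p = 0.0552), the session block (0.94 ± 0.26, adjusted p = 0.0536) and the actin covariate (0.68, adjusted p = 0.206). The Cxcl14 call was lost when any single array other than mouse 3 of KO_12M was left out (0.39 to 0.68, adjusted p up to 0.136), with the actin covariate (0.56, adjusted p = 0.313), and with median scaling, where it became 0.30 (adjusted p = 0.285). Leaving out both arrays whose source label gives another age, only the groups compared, quantile normalization and the session block each took the Cxcl14 call out too. Median scaling shifted all probe sets by -0.30 in this comparison and turned the split of calls from 2 higher and 1 lower into 1 and 3, while over all probe sets the calls moved from 5.79% higher and 3.15% lower to 2.2% higher and 18.2% lower. Without the filter the dim Ccr9 1421920_a_at and Ccr3 were also called higher in KO_12M than in KO_3M (1.55 ± 0.23 and 0.60 ± 0.13, adjusted p = 0.00531 and 0.0225), and in that fit 4.49% of all probe sets were called, 3.01% higher. With quantile normalization in that fit the Ccr3 call was lost (0.39, adjusted p = 0.123).

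The genotype difference at 12 months minus that at 3 months was called for none of the 24, where 0.717% of all probe sets were called. An unadjusted p under 0.05, for which no share of all probe sets is given here, was reached by 4 of the 24. These were Cxcl9 at -1.51 ± 0.53 (adjusted p = 0.192), Cxcl1 at -1.24 ± 0.48 (adjusted p = 0.226), Ccl8 at -1.09 ± 0.40 (adjusted p = 0.205) and Ccl28 at 0.64 ± 0.26 (adjusted p = 0.243). Calls made at a single age are therefore not shown to differ between the ages. For Ccl9 1417936_at the difference between the ages was 0.02 ± 0.17 (adjusted p = 0.973). Cxcl1 was called without mouse 1 of KO_3M (-1.72, adjusted p = 0.0497), and Ccl8 without both arrays run with another fluidics script, mouse 1 of KO_3M and mouse 3 of KO_12M (-1.63, adjusted p = 0.0346).

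**Figure D4:**
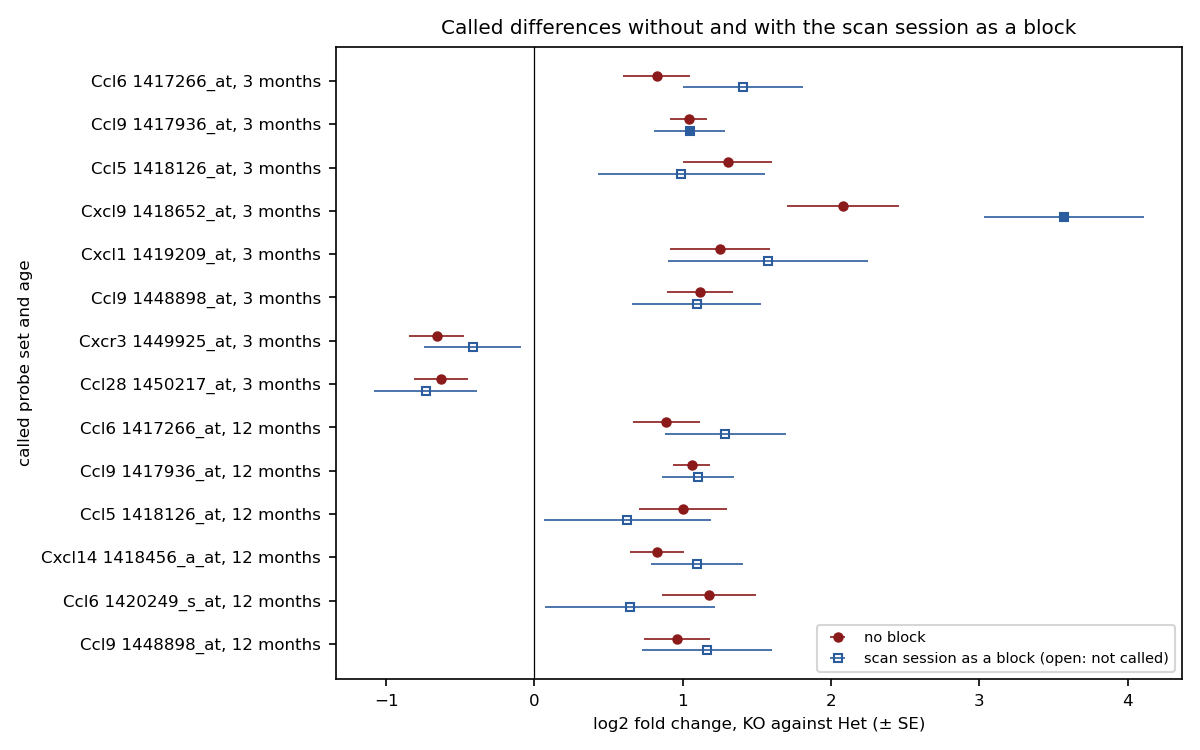
The log2 fold change of KO against Het (x axis, with bars of ± 1 standard error) for each probe set called at 3 or 12 months, without a block (circles) and with the scan session as a block (squares, open where no longer called). Every square lies on the same side of 0 as its circle, and the filled squares are Ccl9 1417936_at at 1.05 and Cxcl9 at 3.57, both at 3 months.

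Genes that act with the chemokines outside the naming rule were read from a list of 37, of which 22 were tested. At 3 months 6 rose and 3 fell, and at 12 months 4 rose and 1 fell, where 21.2% and 9.46% of all probe sets were called. The median log2 difference of the 22 was 0.22 at 3 months and 0.20 at 12 months. Over all probe sets tested it was -0.06 and -0.003. Rarres2, the precursor of the chemoattractant chemerin, rose by 0.75 ± 0.15 (adjusted p = 0.00229) and 0.64 ± 0.15 (adjusted p = 0.0108). Gnai2, the inhibitory G protein subunit through which chemokine receptors signal, rose by 0.79 ± 0.17 (adjusted p = 0.00467) and 0.66 ± 0.17 (adjusted p = 0.0237). Ptk2b, a focal adhesion kinase family member, rose by 1.41 ± 0.31 (adjusted p = 0.00478) at 3 months. Those that fell at 3 months were Plcb2, a phospholipase downstream of G proteins (-1.09 ± 0.21, adjusted p = 0.00205), Ackr1, a decoy receptor (-0.71 ± 0.23, adjusted p = 0.0363), and Rgs1, which shortens G protein signals (-0.90 ± 0.29, adjusted p = 0.0394). At 12 months Ccrl2, a non-signalling receptor that presents chemerin, fell (-0.82 ± 0.24, adjusted p = 0.0435).

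Of 21 genes known to induce chemokine transcription 13 were tested, and 5 rose and 1 fell at 3 months, with 3 rising at 12 months. Among all probe sets tested 9.55% were called higher and 11.6% lower at 3 months, and 5.86% higher at 12 months. Cd14, the co-receptor for bacterial lipopolysaccharide, rose by 2.11 ± 0.31 (adjusted p = 0.000202) and 2.39 ± 0.31 (adjusted p = 0.0001). Irf7, an interferon regulatory factor, rose by 1.80 ± 0.34 (adjusted p = 0.00168) at 3 months, and Jun, an AP-1 subunit, by 0.92 ± 0.22 (adjusted p = 0.00921) and 0.87 ± 0.22 (adjusted p = 0.0201). The gene that fell was Nfkb2, a subunit of NF-kappaB (-0.80 ± 0.25, adjusted p = 0.0325). Among markers of other cells, 1 of 4 tested B and plasma cell markers fell at 3 months and none was called at 12 months. Of 4 dendritic cell markers 1 fell at 3 months and 1 rose at 12 months. Of 8 endothelial markers 1 rose and 1 fell at 3 months and none was called at 12 months. Of 8 hepatocyte markers 1 rose and 1 fell at 3 months and 2 fell at 12 months. Since 21.2% of all probe sets were called at 3 months and 9.46% at 12 months, these small counts are a description only. The summed hepatocyte signal, which checks the tissue label, was 45490.7 to 50050.5 in Het_3M, 45157.3 to 50427.2 in KO_3M, 43840 to 48572.7 in Het_12M and 27558.1 to 42851.4 in KO_12M. No marker on any list had a signal of 0.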

How the data were processed

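The deposited values are MAS 5.0 signals, linear intensity values made by the authors, per the design text. Further scaling settings were not given in the sources used. The trimmed mean over the middle 2 to 98% of probe sets was near 150.1 on every array. Here arrays were brought to 1 common trimmed mean, 16 was added and log2 taken. Of 22626 probe sets other than the 64 controls, 12977 passed the filter. One limma 3.58.1 fit (R 4.3.3, lmFit and eBayes with an intensity trend) held all 12 arrays, with a mean for each of 4 groups and 8 residual degrees of freedom, or 6 with the scan session as a block. It was tested on simulated data, the outcome of which is not given here. Symbols come from the platform table, and all 65 matched RefSeq (GRCm38.p6) by gene ID. Scan sessions come from the deposited scan records. Tables and figures used Python 3.11.15, pandas 2.3.3, numpy 2.4.6 and matplotlib 3.10.9.

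Text names every called probe set, the other probe sets of the same gene, both partners of set ligand-receptor pairs, and up to 3 called genes of each list. Members, lists and rule were chosen with earlier results of these data known. The p-values measure the spread between 3 mice in each group, and 12 arrays limit the precision. Replicate numbers did not pair the samples: deviations from group means correlated from -0.23 to 0.18 between arrays of the same number (median -0.03) and from -0.17 to 0.15 between others (median -0.01). Alternatives covered the offset (4 and 64), filter, scaling, probe set choice, variance trend, blocks, covariate, array weights and arrays left out.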

Additional observations from a re-analysis of the deposited data

Results flagged for a closer look

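Ccl24, an eotaxin, moved in opposite directions at the 2 ages. Its signal was 14.6, 10.6 and 10.9 in Het_3M and 8.4, 9.5 and 9.3 in KO_3M, so every knockout mouse lay below every control. At 12 months it was 12.8, 12.9 and 10.7 in Het_12M and 13.4, 15.3 and 13.6 in KO_12M, so every knockout mouse lay above. All values are far below the array median and the probe set did not pass the filter. Without the filter limma gave 0.26 for the log2 difference at 12 months minus that at 3 months, with an adjusted p of 0.601, and neither age was called (-0.16 ± 0.14 and 0.10 ± 0.14, adjusted p = 0.494 and 0.797).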

How the results depend on the processing

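Counts of called probe sets are given in the order 3 months, 12 months, age in Het, age in KO and interaction, where the values reported are 8, 6, 0, 3 and 0. With the scan session as a block they were 2, 0, 0, 1 and 0, with the actin ratio as a covariate 5, 5, 0, 0 and 0, and at 2-fold or more 5, 3, 0, 1 and 0. Without the filter they were 15, 7, 0, 4 and 0, without the filter under median scaling 13, 3, 0, 6 and 0, and without the filter under quantile normalization 12, 5, 1, 3 and 0. These last combinations, and those leaving out arrays for fluidics, were chosen after seeing the data. Age in KO gave 1 call with quantile normalization and 1 with only the groups compared. The latter setting gave 10 calls at 3 months and 4 at 12 months. Without both arrays whose source label gives another age the count at 3 months was 5. For age in KO it was then 2, with no probe set called higher, and only 1 of the 3 reported calls was kept. With the arrays run under another fluidics script left out the interaction gave 1 call. Leaving out single arrays gave 5 to 10 calls at 3 months (5 without mouse 2 of KO_3M), 3 to 6 at 12 months (3 without mouse 2 of KO_12M), 0 for age in Het, 1 to 3 for age in KO (1 without mouse 3 of KO_3M) and 0 to 1 for the interaction. The replicate block, which the check of pairing did not call for, gave 10, 6, 0, 3 and 0, and of the 17 single calls it took 1 out, Ccl5 at 12 months (adjusted p = 0.0541). No called difference changed sign under any alternative run. The session block left 3 of the 17 single calls and took out 14. The cause of these losses was not tested. Since no session holds both genotypes at the same age, that fit reads genotype across sessions through 6 residual degrees of freedom. Its 3-month difference passes through mouse 3 of KO_12M, the only KO_12M array of session 3. Its 12-month difference passes through mouse 1 of Het_3M, the only Het_3M array of session 1, whose source label gives 12 months. Its age differences rest on the same arrays. Of 23 receptor probe sets 20 reached the median of no array, and signal over background limits what can be compared there.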
